A study of Homo sapiens with 3 samples.

Results

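The genes described here encode the proteins that prepare replication origins, copy DNA and make its building blocks, 48 genes in all, measured in DLD1 cells after treatment with siRNAs against the long noncoding RNA H19. They were chosen by gene symbol: 46 of the 48 had a probe set carrying their symbol alone, of 22465 genes with such a probe set on the array. This list and the further gene lists below were drawn up with earlier results of these data known. Their shares beside all genes are therefore descriptions and not tests. PRIM2 and RRM1 share a probe set with another gene and were left out of the counts. The samples were 1 array of cells given siH19-1, 1 of cells given siH19-2, and 1 of cells given a control siRNA, each transfected at 50 nM with Lipofectamine RNAiMAX. DLD1 is a human colon cancer cell line, and the 3 arrays share that line and transfection. The treatment protocol in the labels gives 48 hours and the design text 24 hours, and these sources do not settle which applies. With 1 array per condition no difference has a replicate check and no error can be given.

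Replication of a chromosome starts at origins, which the origin recognition complex (ORC) marks and where CDC6 and CDT1 load the MCM helicase. Kinases and CDC45 then turn the loaded helicase into a moving fork. At the fork, polymerase alpha with its primase starts each stretch of DNA, polymerases epsilon and delta extend it with the PCNA clamp, and flap nuclease and ligase join the lagging strand. Deoxynucleotides come from ribonucleotide reductase, thymidylate synthase and salvage enzymes. Many of these genes are transcribed in late G1 and S phase under E2F factors, and growing cancer cells such as colon carcinoma lines use the whole set in each division.

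Values are log2 signals as deposited, and differences are differences of log2 signal. A gene was compared where its mean over the 3 arrays was at least 5, which 9630 genes passed. Of the 46 genes, 45 passed and POLD4 did not. A gene is said to fall or rise where its signal differed by at least 1.5-fold, which is 0.585 on the log2 scale. The pooled SD between probe sets of the same gene, over 70 genes with several, was 0.233 for siH19-1 minus control and 0.295 for siH19-2 minus control. It compares probe sets on the same arrays, so it leaves out variation between cultures and arrays and is not the error of a difference. None of the 46 genes has a second probe set of its own. The levels below are those of different probe sets and say nothing about which gene is more abundant.

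The probe set annotated to H19 and MIR675 together (TC11001273.hg.1) had log2 signals of 7.74 with siH19-1, 7.37 with siH19-2 and 7.88 with control siRNA. It stood at 90.8% (siH19-1) and 70.2% (siH19-2) of the control signal, differences of -0.14 and -0.51 that are both under 1.5-fold. Of 10 epithelial markers, 7 passed the signal minimum, with VIL1, CDX1 and LGALS4 below it. Among those 7, CDH1 rose with both siRNAs (1.83 with siH19-1 and 1.96 with siH19-2). EPCAM fell with siH19-2 (-1.72, against -0.04 with siH19-1), and the other 5 changed with neither. None of 9 fibroblast and mesenchymal markers measured passed, COL1A1, VIM and DCN among those below, and of 9 leukocyte and endothelial markers only CD68 did, at 5.85, 5.98 and 5.95 with siH19-1, siH19-2 and control. Array medians over all 67528 probe sets were 3.53, 3.57 and 3.47 in the same order.

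Of the 45 compared genes, 32 lay below control with both siRNAs, and 11 (24.4%) fell with 1 or both, beside 10.5% of all compared genes. With siH19-1, 5 fell: the helicase factor CDC45, the kinase CDC7, the polymerase epsilon subunit POLE3, the ligase LIG1 and the clamp loader subunit DSCC1. These are 11.1% of the compared members, beside 2.63% of all compared genes that fell with siH19-1. With siH19-2, 8 fell: ORC1, ORC5, CDC45, the CDC7 activator DBF4, RFC3, DSCC1, the fork protection gene TIPIN and RRM2. These are 17.8% of the members, beside 8.95% of all compared genes. The 2 that fell with both, CDC45 and DSCC1, are 4.44% of the members, beside 1.09% of all compared genes. No member rose with either siRNA, where 1.58% (siH19-1), 2.94% (siH19-2) and 0.685% (both) of all compared genes did, although TYMS and RFC4 reached 1.5-fold higher with siH19-2 after median centring.

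The median difference of the 45 genes was -0.20 with siH19-1 and -0.21 with siH19-2, beside -0.06 and -0.07 over all compared genes. After median centring the members' medians were -0.13 and -0.10, beside 0.01 and 0.04 over all compared genes. With siH19-1, 38 of the 45 lay below control (84.4%), beside 61.9% of all compared genes, and with siH19-2, 35 did (77.8%), beside 58.4%. The 32 genes below control with both siRNAs are 71.1%, beside 45.6% of all compared genes. This count followed the scaling, with 24 members after median centring (29.5% of all compared genes) and 37 after centring on the median of all probe sets (60.4%). Another 4 members were above control with both, beside 2274 of all 9630 compared genes. On opposite sides of control lay 9 members, beside 2616 of the 9630. Of those 9, ORC6 alone had a difference past 0.3. Both comparisons use the same control array, so a deviation of that array enters both and cannot be told apart from an effect of the siRNAs. In RNA from whole cultures, fewer cells in S phase and less RNA per cell cannot be told apart either. Just inside the threshold lay CDC7 (-0.63, siH19-1) and RRM2 (-0.63, siH19-2). Just outside lay ORC5 and POLA2 (-0.58 each, siH19-1) and RFC5 (-0.52, siH19-2).

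**Figure D1:**
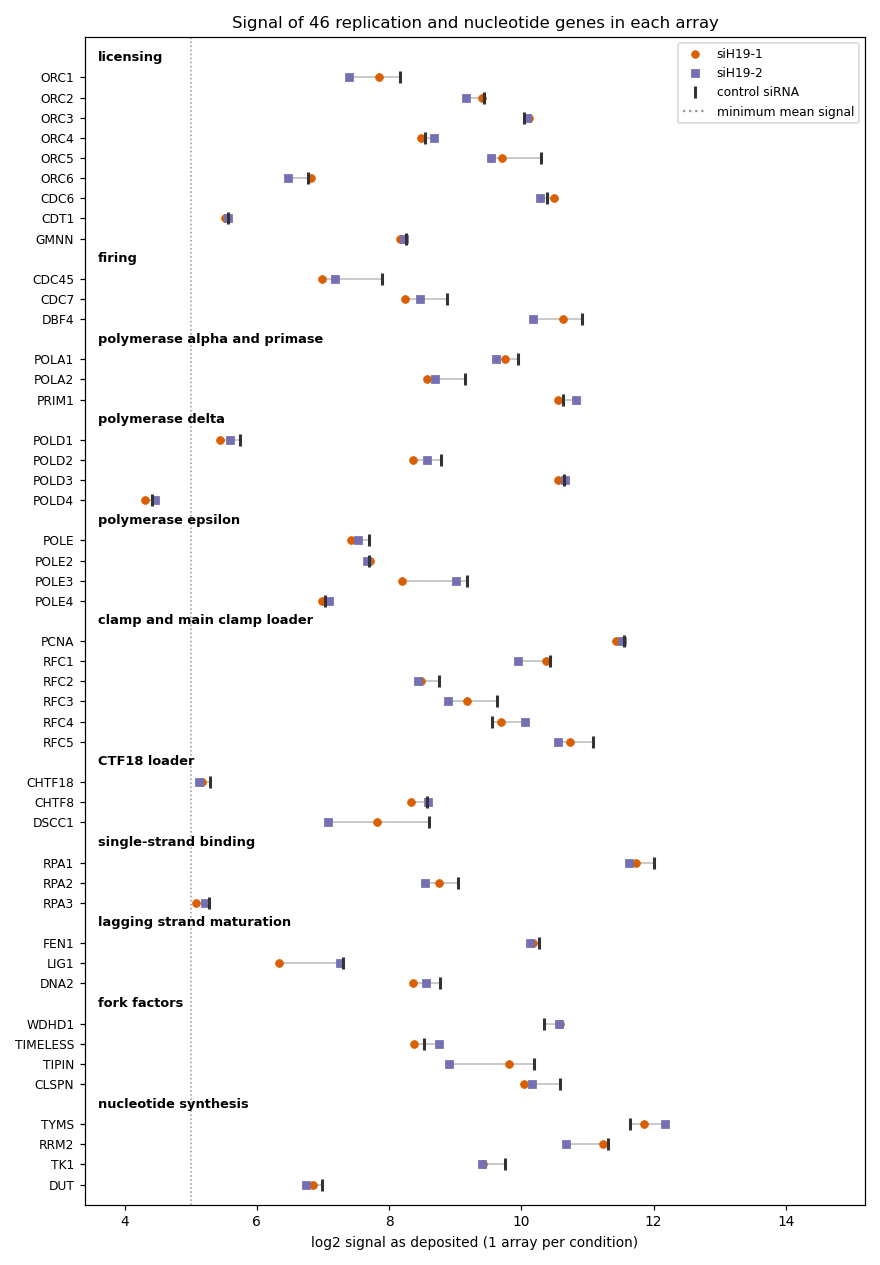
Log2 signal as deposited (x axis) of the 46 genes with a probe set of their own, by role; circles are siH19-1, squares siH19-2 and vertical bars control siRNA, 1 array each, and the dotted line is the minimum mean signal of 5. DSCC1 and TIPIN show the widest gaps between siH19-2 and control, LIG1 and POLE3 between siH19-1 and control, and POLD4 lies below the minimum.

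Promoter sequence is shown for some of the members, since E2F sites are the feature by which this gene group is usually described. RefSeq promoter windows (GRCh38.p14, 250 bases before to 50 after a start site) were matched by symbol for 43 of the 48 genes. The search was for the 8-letter words TTTCCCGC, TTTCGCGC, TTTGCCGC and TTTGGCGC, which belong to the E2F consensus, for CCAAT, and for TTTGAA, the CHR element of cell cycle promoters, each on both strands. No E2F word overlaps a CCAAT in the windows printed. The 250 bases before the start site are given 5′ to 3′ on the gene's strand, with capitals marking an E2F or CCAAT match on either strand. CDC45 fell with both siRNAs and TYMS, which changed with neither, is shown against it by the rule for named genes. CDC7, LIG1, RFC3 and TIPIN were added after their values were seen, since each fell with 1 siRNA and has an E2F word. For these added genes the window with the most E2F words is printed, and for CDC45 and TYMS the first one listed. DSCC1, which also fell with both siRNAs, had no promoter window. ORC1, ORC5, DBF4, POLE3 and RRM2 also fell with 1 siRNA, have no E2F word in their windows and are not shown.
CDC45, chr22:19479670-19479919, plus strand: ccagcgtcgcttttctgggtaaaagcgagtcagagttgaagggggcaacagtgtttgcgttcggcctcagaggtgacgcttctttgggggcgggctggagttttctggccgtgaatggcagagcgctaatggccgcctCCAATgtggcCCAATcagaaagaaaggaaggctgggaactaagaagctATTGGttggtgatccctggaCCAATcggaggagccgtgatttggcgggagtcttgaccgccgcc
CDC7, chr1:91500862-91501111, plus strand: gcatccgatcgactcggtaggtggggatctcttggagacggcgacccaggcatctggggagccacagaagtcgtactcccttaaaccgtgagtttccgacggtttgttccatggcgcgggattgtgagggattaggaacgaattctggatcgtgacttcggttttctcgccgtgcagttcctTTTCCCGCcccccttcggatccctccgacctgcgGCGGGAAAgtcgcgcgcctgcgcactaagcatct
LIG1, chr19:48170345-48170594, minus strand: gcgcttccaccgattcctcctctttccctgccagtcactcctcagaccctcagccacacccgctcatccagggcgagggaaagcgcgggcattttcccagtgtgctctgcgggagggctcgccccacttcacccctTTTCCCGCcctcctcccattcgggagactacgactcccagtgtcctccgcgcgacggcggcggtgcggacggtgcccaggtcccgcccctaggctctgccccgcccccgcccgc
RFC3, chr13:33817899-33818148, plus strand: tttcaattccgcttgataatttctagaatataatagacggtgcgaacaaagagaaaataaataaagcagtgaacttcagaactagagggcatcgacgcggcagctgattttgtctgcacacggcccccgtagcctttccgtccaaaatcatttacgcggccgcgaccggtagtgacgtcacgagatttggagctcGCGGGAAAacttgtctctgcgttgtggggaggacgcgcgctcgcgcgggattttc
TIPIN, chr15:66356686-66356935, minus strand: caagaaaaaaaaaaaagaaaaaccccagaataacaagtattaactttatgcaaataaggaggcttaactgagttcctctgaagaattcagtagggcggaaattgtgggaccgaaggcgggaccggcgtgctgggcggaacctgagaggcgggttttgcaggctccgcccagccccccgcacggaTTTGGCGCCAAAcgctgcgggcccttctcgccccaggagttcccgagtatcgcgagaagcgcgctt
TYMS, chr18:657403-657652, plus strand: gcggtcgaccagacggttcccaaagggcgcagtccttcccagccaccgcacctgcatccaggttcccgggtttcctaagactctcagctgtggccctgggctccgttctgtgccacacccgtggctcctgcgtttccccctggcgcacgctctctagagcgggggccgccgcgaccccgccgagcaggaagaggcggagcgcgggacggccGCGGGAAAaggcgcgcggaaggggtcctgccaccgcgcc

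CDC45 had 4 CCAAT words in this window and no E2F word in any of its 3 windows. Only exact matches to the listed words were counted, so an E2F site spelled otherwise would be missed. The CDC45 window printed holds tttggcgg, which differs from the listed TTTGGCGC in its last base. CDC7 had E2F words whose first bases lie 68 and 34 bases before the start site, in 1 of its 2 windows. LIG1 had 1 at 114 bases. In RFC3 the word began 55 bases before the start, and in TYMS 39 bases. TIPIN had 2 overlapping words, on opposite strands, at 66 and 62 bases, in 1 of its 2 windows. Over the compared members with a window, 17 of 40 genes (42.5%) held an E2F word in at least 1 window, beside 7.17% of 7271 compared genes and 3.99% of all 27305 genes in the table. Within the members it was in 4 of 10 that fell with 1 or both siRNAs (40.0%) and in 13 of 30 that changed with neither (43.3%). CCAAT was in 4 of 10 and 18 of 30 in the same order, beside 44.4% of compared genes. TTTGAA was in 2 of 10 and 1 of 30, beside 14.4% of compared genes.

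The licensing genes, among them the inhibitor geminin, differed little except for a pair of ORC subunits that fell with siH19-2. Of 9 compared, 0 fell with siH19-1 and 2 (22.2%) with siH19-2, beside 2.63% and 8.95% of all compared genes. Their medians were -0.05 and -0.11, beside -0.06 and -0.07 over all compared genes. ORC1, the subunit whose amount varies over the cell cycle in human cells, had log2 signals of 7.85 with siH19-1, 7.40 with siH19-2 and 8.16 with control siRNA. It was lower by 0.31 with siH19-1 and fell 1.69-fold with siH19-2 (-0.76). ORC5, an ATP-binding subunit, had 9.71 with siH19-1, 9.54 with siH19-2 and 10.29 with control siRNA. Its difference was -0.75 with siH19-2, where it fell, and -0.58 with siH19-1, which is 1.49-fold and short of the threshold. Both siRNA arrays thus lay below control for these subunits.

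The other ORC subunits stayed within 0.31 of control with each siRNA. ORC2 was at -0.03 (siH19-1) and -0.26 (siH19-2), ORC3 at 0.07 and 0.04, and ORC4 at -0.06 and 0.13. ORC6, which binds the ORC core loosely in human cells, had 6.82 with siH19-1, 6.47 with siH19-2 and 6.78 with control siRNA. Its differences, 0.04 and -0.31, had opposite signs. The MCM loader CDC6 was at 10.49, 10.28 and 10.39 with siH19-1, siH19-2 and control, the only licensing gene besides ORC6 to lie above control with siH19-1 and below it with siH19-2. CDT1, the other loader, differed by -0.05 and -0.01, and its inhibitor geminin (GMNN) by -0.08 and -0.03. CDT1 protein is controlled mainly by degradation and by geminin, which arrays of RNA do not measure.

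The 3 members listed as origin firing genes all lay below control with both siRNAs, and each fell with at least 1. Among all compared genes, 45.6% lay below control with both and 10.5% fell with at least 1. The medians of these 3 were -0.63 with siH19-1 and -0.72 with siH19-2. Firing factors outside the members went both ways (siH19-1, then siH19-2). MTBP (0.45 and 0.21) and DONSON (0.28 and 0.03) lay above control. MCM10 (-0.60 and -1.22), TICRR (-0.38 and -0.62), TOPBP1 (-0.10 and -0.24), RECQL4 (-0.19 and -0.10) and DBF4B (-0.15 and -0.08) lay below it. CDC45 (TC22000046.hg.1), which joins MCM and GINS in the active helicase, had log2 signals of 6.99 with siH19-1, 7.18 with siH19-2 and 7.90 with control siRNA. It fell 1.88-fold (-0.91) with siH19-1 and 1.65-fold (-0.72) with siH19-2. Among all compared genes 0.633% were as low with siH19-1 and 5.77% with siH19-2. Both siRNA arrays were therefore below control by more than they differed from each other (-0.19, siH19-1 minus siH19-2).

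CDC7 and DBF4 are the catalytic and activating subunits of the kinase that phosphorylates MCM at origins. CDC7 had 8.24 with siH19-1, 8.47 with siH19-2 and 8.87 with control siRNA. It fell with siH19-1 (-0.63), though the difference fell short of 1.5-fold under 3 other scalings (-0.56 with median centring, -0.56 with quantile normalization, -0.57 with cyclic loess), and with siH19-2 it was -0.40. DBF4 had 10.63 with siH19-1, 10.17 with siH19-2 and 10.92 with control siRNA, and it fell with siH19-2 (-0.75), against -0.29 with siH19-1. The subunit that passed the threshold thus differed between the siRNAs, while both subunits were below control on both arrays. A difference between siH19-1 and siH19-2 of 1.5-fold was not reached for CDC7 (-0.23) or DBF4 (0.46).

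**Figure D2:**
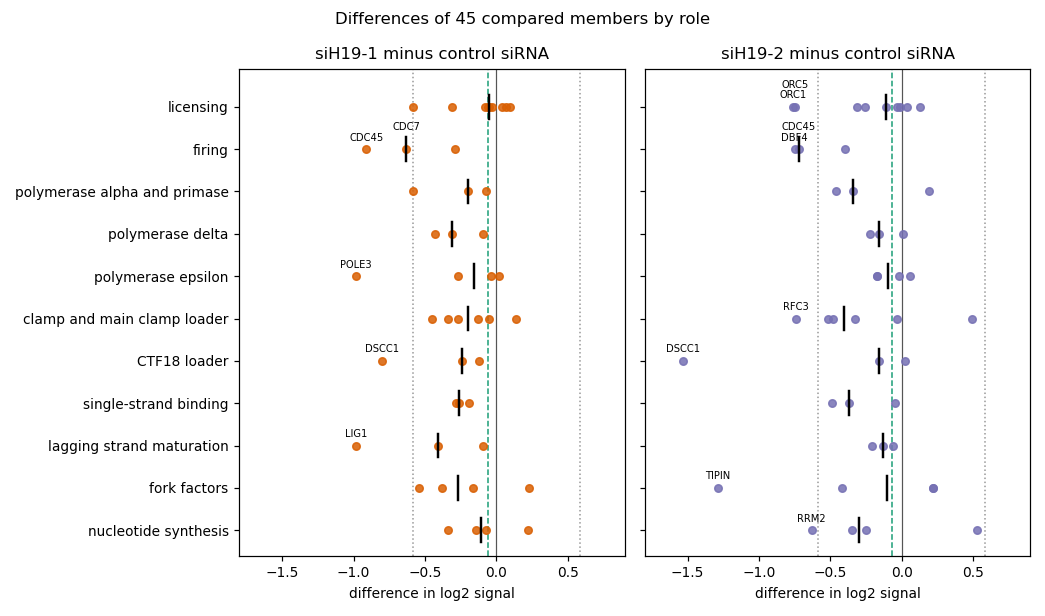
Difference in log2 signal from control siRNA (x axes; siH19-1 left, siH19-2 right) of the 45 compared genes by role; each point is 1 gene, black bars are group medians, the dashed green line is the median of all compared genes and dotted lines mark 1.5-fold. Named points are the 5 genes that fell with siH19-1 and the 8 that fell with siH19-2; no gene passes the line on the right.

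Of 10 compared subunits of polymerases alpha, delta and epsilon, 1 fell with siH19-1 (10.0%) and 0 fell with siH19-2, beside 2.63% and 8.95% of all compared genes. Their medians were -0.24 and -0.16, beside -0.20 and -0.21 over the 45 members. The gene that fell was POLE3 (TC09001503.hg.1), a histone-fold subunit of polymerase epsilon that also belongs to a chromatin remodelling complex. It had 8.20 with siH19-1, 9.01 with siH19-2 and 9.18 with control siRNA, and fell 1.97-fold (-0.98) with siH19-1 against -0.17 with siH19-2. Its histone-fold partner POLE4 was at 6.99, 7.09 and 7.03 with siH19-1, siH19-2 and control, so the pair did not move together. The catalytic subunit POLE was at -0.27 and -0.17 and the second-largest subunit POLE2 at 0.02 and -0.02.

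In polymerase alpha the regulatory subunit POLA2 had 8.57 with siH19-1, 8.69 with siH19-2 and 9.15 with control siRNA. Its differences of -0.58 and -0.46 were both under 1.5-fold. The catalytic subunit POLA1 was at -0.20 and -0.34, and the primase subunit PRIM1 had 10.56, 10.82 and 10.63 with siH19-1, siH19-2 and control. The probe set annotated to PRIM2 and PRIM2BP, which cannot be assigned to either, read 8.68 with siH19-1, 8.01 with siH19-2 and 8.90 with control siRNA, differences of -0.22 and -0.89. In polymerase delta the catalytic POLD1, with a mean signal of 5.59 near the minimum of 5, was at -0.31 and -0.16. POLD2 was at -0.43 and -0.22, and POLD3 at -0.09 and 0.01. POLD4, below the signal minimum, read 4.31, 4.46 and 4.42 with siH19-1, siH19-2 and control.

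Among the clamp and its main loader, PCNA stayed close to control while loader subunits spread in both directions. The sliding clamp PCNA had 11.43 with siH19-1, 11.53 with siH19-2 and 11.56 with control siRNA (-0.13 and -0.03). The loader has a large subunit, RFC1, and small subunits RFC2, RFC3, RFC4 and RFC5. RFC3 had 9.18 with siH19-1, 8.89 with siH19-2 and 9.63 with control siRNA, and it fell 1.67-fold (-0.74) with siH19-2 against -0.45 with siH19-1. RFC5 was at -0.34 and -0.52, RFC2 at -0.27 and -0.33, and RFC1 at -0.05 and -0.48. RFC4 went the other way, with 9.70 with siH19-1, 10.05 with siH19-2 and 9.56 with control siRNA. Its difference of 0.49 with siH19-2 was under 1.5-fold as deposited and reached 0.60 after median centring.

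DSCC1 (TC08001560.hg.1) was the lowest member with siH19-2. It is a subunit of the CTF18 loader, an alternative complex that shares the small RFC subunits and acts in sister chromatid cohesion. Its log2 signals were 7.81 with siH19-1, 7.08 with siH19-2 and 8.61 with control siRNA. It fell 1.74-fold (-0.80) with siH19-1 and 2.89-fold (-1.53) with siH19-2, where 1.05% and 0.717% of all compared genes were as low. The 2 proteins it joins in that loader did not follow. CHTF18 was at 5.17, 5.13 and 5.29 with siH19-1, siH19-2 and control, near the signal minimum of 5, where a change may be hidden. CHTF8 was at 8.33, 8.59 and 8.57 in the same order, so only 1 of the 3 subunits passed the threshold.

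Replication protein A, which coats single-stranded DNA, was below control with both siRNAs in all 3 subunits and past 1.5-fold in none. Among all compared genes, 45.6% lay below control with both. RPA1 had 11.74 with siH19-1, 11.63 with siH19-2 and 12.00 with control siRNA, and the group's medians were -0.26 and -0.37. RPA2 was at -0.28 and -0.49 and RPA3, with a mean signal of 5.19 near the minimum of 5, at -0.19 and -0.05. On the lagging strand, LIG1 (TC19001676.hg.1), the ligase that joins Okazaki fragments, had 6.33 with siH19-1, 7.25 with siH19-2 and 7.31 with control siRNA. It fell 1.97-fold (-0.98) with siH19-1, while siH19-2 (-0.06) lay beside control. The flap nuclease FEN1 was at -0.09 and -0.13, and the nuclease and helicase DNA2 at -0.41 and -0.21.

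Among fork factors the difference lay between the partners TIMELESS and TIPIN, which form a single complex that steadies the stalled fork. TIPIN (TC15001576.hg.1) had 9.81 with siH19-1, 8.90 with siH19-2 and 10.19 with control siRNA. It fell 2.45-fold (-1.29) with siH19-2, against -0.38 with siH19-1. TIMELESS had 8.37 with siH19-1, 8.75 with siH19-2 and 8.53 with control siRNA, a difference of 0.22 with siH19-2 and -0.16 with siH19-1. With siH19-2 the partners thus lay on opposite sides of control. The checkpoint mediator CLSPN was at -0.54 and -0.42, and WDHD1, which links polymerase alpha to the helicase, had 10.58, 10.57 and 10.35 with siH19-1, siH19-2 and control, above control on both arrays and under 1.5-fold.

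The enzymes of deoxynucleotide supply went in different directions. RRM2, the small subunit of ribonucleotide reductase that is made in S phase, had 11.24 with siH19-1, 10.68 with siH19-2 and 11.31 with control siRNA. It fell 1.55-fold (-0.63) with siH19-2, but fell short of 1.5-fold when scaled by median centring (-0.52), quantile normalization (-0.52) or cyclic loess (-0.58). With siH19-1 its difference was -0.07. Thymidylate synthase (TYMS), which makes thymidine monophosphate, had 11.86 with siH19-1, 12.17 with siH19-2 and 11.64 with control siRNA. It was above control on both arrays (0.22 and 0.53), and with siH19-2 reached 0.64 after median centring and 0.60 after quantile normalization. The salvage enzyme TK1 was at -0.34 and -0.35, and DUT, which removes dUTP, at -0.14 and -0.25. The probe set annotated to RRM1 and LINC02749 together read 13.15 with siH19-1, 13.29 with siH19-2 and 13.39 with control siRNA.

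**Figure D3:**
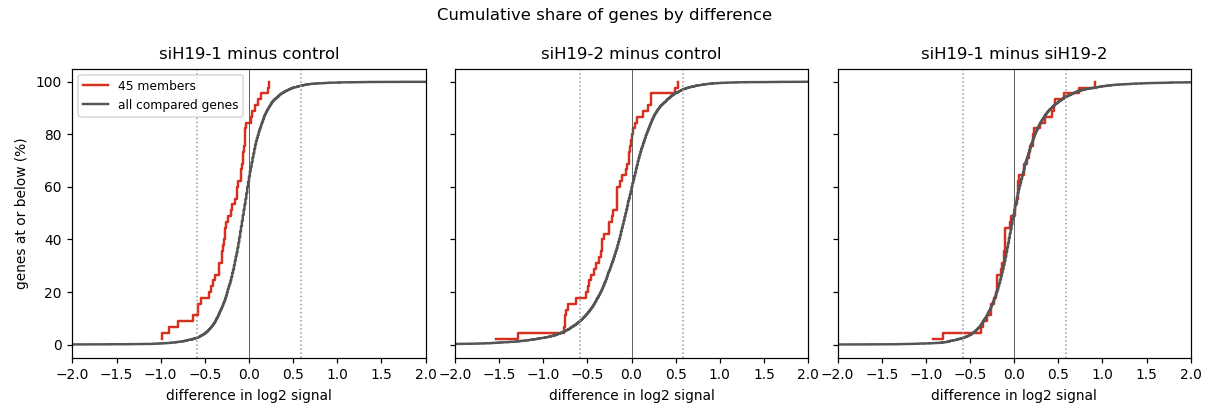
Cumulative share of genes (y axis, percent at or below) by difference in log2 signal (x axis, shown from -2 to 2) for the 45 members (red) and all 9630 compared genes (grey); dotted lines mark 1.5-fold. The members lie to the left of all genes against control (medians -0.20 and -0.21 beside -0.06 and -0.07) and follow them between the siRNAs (0.01 beside 0.00).

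The direct comparison of the siRNA arrays uses no control array and left the members, as a list, where all genes were. The median of siH19-1 minus siH19-2 was 0.01 over the 45 genes and 0.00 over all compared genes, and 22 members (48.9%) were lower with siH19-1, beside 49.4% of all compared genes, and 23 higher. LIG1 (-0.92) and POLE3 (-0.81) were lower with siH19-1 by at least 1.5-fold, 2 of 45 genes or 4.44%, beside 2.51% of all compared genes. DSCC1 (0.73) and TIPIN (0.91) were higher with siH19-1, also 2 of 45, beside 5.70% of all compared genes. RRM2 (0.56), DBF4 (0.46) and ORC1 (0.45) came next without reaching the threshold. Of the 9 genes that fell with 1 siRNA only, 3 (LIG1, POLE3 and TIPIN) differed between the siRNA arrays by 1.5-fold, and 6 did not. The same siRNA arrays picked these genes, and the matching share among all compared genes that fell with 1 siRNA only was not computed.

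**Figure D4:**
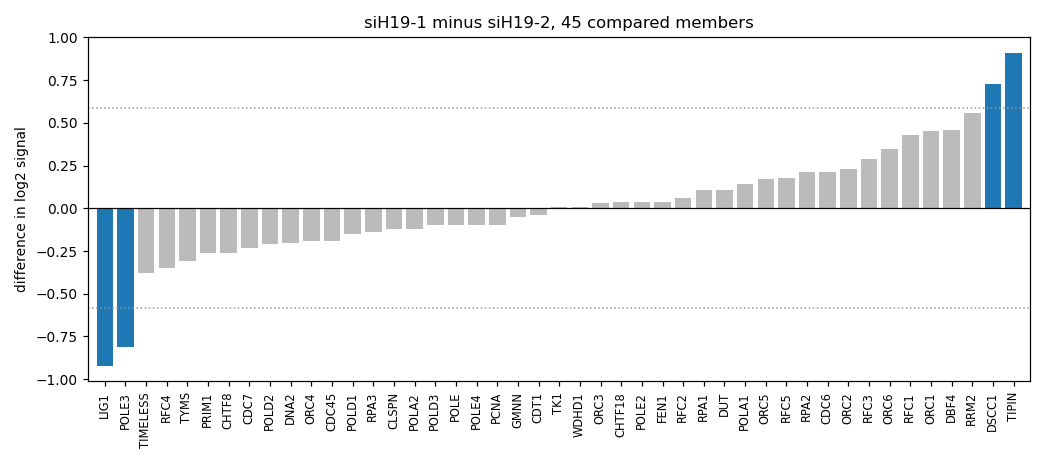
Difference in log2 signal, siH19-1 minus siH19-2 (y axis), of the 45 compared genes in order; blue bars pass 1.5-fold (dotted lines) and grey bars do not. LIG1 and POLE3 are lower with siH19-1, and DSCC1 and TIPIN lower with siH19-2.

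Other genes of the same pathway also lay below control by their medians. Of 42 further replication genes (helicase subunits, firing factors, chromatin assembly and S phase degradation factors), 38 were compared; 6 fell and 1 rose with siH19-1, and 11 fell and 1 rose with siH19-2. Those that fell are 15.8% and 28.9%, beside 2.63% and 8.95% of all compared genes, and the medians were -0.20 and -0.28. GINS2, a subunit of the active helicase, had 8.22 with siH19-1, 7.79 with siH19-2 and 9.10 with control siRNA and fell with both (-0.88 and -1.31). The helicase subunit MCM2 had 7.66 with siH19-1, 6.85 with siH19-2 and 8.26 with control siRNA and fell with both (-0.60 and -1.41), whereas MCM3 had 11.62, 9.67 and 11.73 in that order and differed by -0.11 with siH19-1 while it fell with siH19-2 (-2.06). The histone chaperone ASF1A had 8.59 with siH19-1, 8.58 with siH19-2 and 7.96 with control siRNA and rose with both (0.63 and 0.62).

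The 20 further genes of nucleotide supply, of which 16 were compared, moved less: 0 fell with siH19-1 and 3 (18.8%) with siH19-2, beside 2.63% and 8.95% of all compared genes, with medians of -0.07 and -0.20. The 3 were CTPS1, which makes CTP (-0.87), DCTPP1, which hydrolyses dCTP (-0.70), and the salvage kinase DCK (-0.65). The deaminase DCTD, which feeds thymidylate synthesis, was at 0.38 with siH19-1 and 0.16 with siH19-2.

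Markers of proliferation were lower by their medians as well. Of 8 compared, 1 fell with siH19-1 (CCNB1, -0.63) and 3 with siH19-2 (MKI67 -0.61, CCNB1 -0.93 and CCNA2 -0.79). Below control with both were 6 of 8 (75.0%), beside 45.6% of all compared genes. Those that fell are 12.5% and 37.5%, beside 2.63% and 8.95% of all compared genes, and the medians were -0.29 and -0.50. TOP2A (0.12 and 0.08) and BUB1 (0.04 and 0.14) lay above control with both. The part of the proliferation genes in the differences of the replication genes was not tested.

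A linear model treated the 2 siRNA arrays as replicates against the 1 control array, which leaves 1 residual degree of freedom and takes the spread of the control to equal that of the siRNA arrays. With limma and Benjamini-Hochberg adjustment over 9630 genes, 0 of the 45 genes had an adjusted p under 0.05 (lowest 0.863). At an unadjusted p under 0.05 there were 4 of 45 (CDC45, ORC5, POLA2 and CLSPN), beside 3.67% of all compared genes. At a 2-fold threshold no member fell with siH19-1, and DSCC1 and TIPIN fell with siH19-2.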

How the data were processed

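RNA from DLD1 cells was measured on 3 Affymetrix whole-transcript arrays, 1 per condition, from 500 ng of total RNA per the labels' protocols. The deposited values are log2 signals; per the submitters' processing notes the authors used Affymetrix Expression Console and RMA (background correction, normalization between arrays, probe summary), with no version stated in the labels. Values run from 1.78 to 19.93. From 315 to 337 probe sets per array, and none of the members, lie above 16, more than a 16-bit scan holds, so a step beyond RMA is possible and folds hold on the deposited scale. The number of arrays limits precision.

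Platform annotation gave 1 symbol to 23781 probe sets, several to 1543 and none to 42204. A gene took its probe set with the highest mean. Genes with a mean of at least 5 were compared, and a 1.5-fold difference was called. The members and lists were chosen with earlier results of these data known. Every compared member is counted; members past 1.5-fold, the brightest of each role and those of opposite sign past 0.3 are named, and the rest are given as values.

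Alternatives were no minimum, a minimum of 7, median centring over compared genes, quantile normalization, cyclic loess, the mean of probe sets, a 2-fold threshold and limma; centring over all probe sets was added after seeing the data. Tools were Python 3.11.15, numpy 2.4.6, pandas 2.3.3, matplotlib 3.10.9, R 4.3.3 and limma 3.58.1. Sequences are from RefSeq.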

Additional observations from a re-analysis of the deposited data

How the results depend on the processing

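The number of members changed with both siRNAs was 2 (CDC45 and DSCC1) in each scaling and filter planned, 3 when each array was centred on the median of all its probe sets, which added ORC5, and 0 at a 2-fold threshold and 0 by limma. With siH19-1 the count of 5 became 4 with a minimum of 7 (without LIG1) and after median centring, quantile normalization and cyclic loess (without CDC7), 8 after centring over all probe sets, and 0 at 2-fold. With siH19-2 the count of 8 became 9 after median centring, now 7 lower and 2 higher, 8 after quantile normalization (7 lower, 1 higher), 7 after cyclic loess, 10 after centring over all probe sets, and 2 at 2-fold. Between the siRNAs the count of 4 became 3 with a minimum of 7, 5 after centring over all probe sets (with RRM2) and 0 at 2-fold. The share of all compared genes lower with siH19-1 and siH19-2 was 1.91% and 6.20% after median centring, 3.69% and 12.5% after centring over all probe sets, 2.19% and 7.63% after quantile normalization, 2.08% and 8.08% after cyclic loess, and 0.467% and 2.62% at 2-fold. Median centring moved the median of all genes with siH19-2 from -0.07 to 0.04. It subtracts 1 value per array, so the members' median relative to all genes stayed at -0.14 with each siRNA by construction. With siH19-1 and siH19-2 that relative median was -0.14 and -0.11 after quantile normalization, and -0.15 and -0.14 after cyclic loess. Median differences with siH19-1, siH19-2 and between them were -0.13, -0.10 and -0.03 after median centring; -0.26, -0.31 and 0.05 after centring over all probe sets; and -0.18, -0.16 and -0.03 after quantile normalization. With siH19-1 the median was -0.18 after cyclic loess and -0.25 with a minimum of 7, and with siH19-2 it was -0.24 with a minimum of 7. With no minimum it was -0.19 with siH19-2 and -0.01 between the siRNAs; these turns of sign are around a median of 0.01. Of 404 values of single members under the 4 other scalings, which alone can move them, 389 kept their side of the 1.5-fold threshold, 6 fell short of it and 9 newly passed it. Many of the 404 lay too far from the threshold to cross it, so 389 is no measure of how stable the calls were. The 6 were CDC7 with siH19-1 and RRM2 with siH19-2, each under median centring, quantile normalization and cyclic loess. No paired analysis was possible because each condition has 1 array. Signals near background could not be judged, since detection calls were not used here.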
